A study of Mus musculus with 6 samples.

Results

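The potassium channel gene family was examined in MIN6 cells, an established beta cell line of the mouse that secretes insulin, for binding of the transcription factor MafA and for the histone mark H3K4me3. Its members were the protein-coding genes whose symbol starts with Kcn and a letter, apart from Kcnj11, and numbered 93 of the 21900 protein-coding genes in a RefSeq table of GRCm38.p6. They fell into 21 subfamilies by the letters that follow Kcn. CUT&RUN, in which an antibody directs a nuclease to its target in permeabilised cells so that nearby fragments are released and sequenced, had been run on 500000 cells per sample with antibodies to endogenous MafA, to H3K4me3 as positive control and with IgG as negative control. Each of these 3 groups held 2 replicates of unmodified cells with no treatment named in the labels. Peak lists of the MafA and H3K4me3 libraries were analysed, and IgG files were not used here. A single cell line stands here for the beta cell, and the labels do not say whether replicates came from separate cultures.

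Potassium channels let potassium leave a cell and so set its resting potential and end its electrical activity. In beta cells, closure of ATP-sensitive channels after glucose uptake depolarises the membrane, and voltage-gated and calcium-activated potassium channels then repolarise it and limit calcium entry and insulin release. The family holds pore-forming subunits (voltage-gated, inward rectifier, tandem pore domain and calcium- or sodium-activated), silent modifier subunits that join voltage-gated pores, and auxiliary subunits that form no pore. MafA is a basic leucine zipper factor that activates the insulin genes and other genes of mature beta cells. H3K4me3 is found at the starts of genes that are active or poised.

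Of 8 beta cell marker genes, 7 carried H3K4me3 at a gene end and all 8 had a MafA region; the exception for the mark was Ins1. Among genes of other cell types, H3K4me3 was at an end of 1 of 5 genes of other islet cells (Gcg) and of 0 of 3 exocrine and duct genes, 0 of 3 blood, vessel and stroma genes and 0 of 2 liver and muscle genes. MafA regions lay at 3 of 5, 1 of 3, 2 of 3 and 1 of 2 genes of those lists, among them the liver gene Alb with fold enrichment of 17.8 and 26.2. Shares over all protein-coding genes were 55.8% for the mark at an end and 44.0% for a MafA region.

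Peaks were counted for a channel gene when they lay in it or within 10 kb either side. The family had 222 and 259 MafA peaks in replicates 1 and 2, and 105 and 114 H3K4me3 peaks. Each list had been called on a single library, and fold enrichment, the authors' ratio of signal to background at the summit, had a median of 4.80 and 4.84 for the MafA peaks and 11.3 and 10.8 for the H3K4me3 peaks. A median MafA summit at these genes held 22 and 45 fragments, recovered from the deposited ratio and p-value, against 376 and 131 for H3K4me3. A partner in the other MafA library, sharing 1 bp or more, was found for 77.5% of the replicate 1 peaks (172 of 222, 95% Wilson interval 71.5 to 82.5%). For replicate 2 the figure was 64.9% (168 of 259, 58.9 to 70.4%). Over the whole MafA lists the shares were 81.2% in replicate 1 and 60.8% in replicate 2. Matched peaks were merged into 168 distinct MafA regions, each found in both replicates, with summits a median of 60 bp apart. Intervals cover counting error only.

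A MafA region lay at 52 of the 93 genes, or 55.9% (95% Wilson interval 45.8 to 65.6%). Over all protein-coding genes the share was 44.0%. Potassium channel genes are long, with a median of 32876 bp against 17146 bp for all protein-coding genes, and a longer gene gives a larger window. By length, a region lay at 16 of 35 channel genes under 20 kb (31.1% of all genes of that length), at 19 of 35 from 20 to 100 kb (53.1%) and at 17 of 23 over 100 kb (78.5%). The family share was thus near the background in the longer classes. Per megabase of gene and flank there were 13.4 MafA regions for the family and 13.9 for all protein-coding genes. With equal numbers of the strongest peaks from every library, 32 channel genes kept a region (34.4%, against 22.9% of all genes) and the distinct regions numbered 73. Without MafA replicate 1, all peaks of replicate 2 gave 259 regions.

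**Figure D1:**
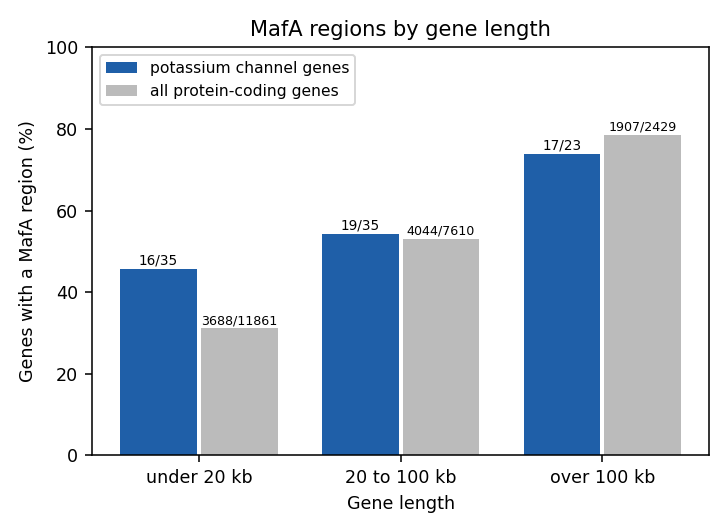
Share of genes with a MafA region found in both replicates (vertical axis, percent) in 3 classes of gene length, for the potassium channel genes (blue) and all protein-coding genes (grey), with the counts above the bars. The channel genes stood above the background under 20 kb (16 of 35) and close to it from 20 to 100 kb (19 of 35) and over 100 kb (17 of 23).

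The H3K4me3 mark was found at a gene end, to within 1 kb, for 48 of the 93 genes, against 55.8% of all protein-coding genes. By length these were 10 of 35 genes under 20 kb (background 46.7%), 20 of 35 from 20 to 100 kb (65.9%) and 18 of 23 over 100 kb (68.3%). The family share was below the background in the first 2 classes and above it in the last. Fold enrichment of the mark was also lower here. The 53 H3K4me3 regions at channel gene ends had median fold enrichment of 10.4 and 10.2 in the replicates, against 18.1 and 16.4 for the 10938 regions at ends of all protein-coding genes. Among marked channel genes, 31 of 48 had a MafA region, near the 61.2% of all marked genes. Split by length, marked channel genes with a region numbered 6 of 10 under 20 kb (background 50.9%), 12 of 20 from 20 to 100 kb (64.3%) and 13 of 18 over 100 kb (86.6%). Among unmarked ones, with no mark within 1 kb of a gene end, the count was 21 of 45, where the background was 22.3%. Of these 21, Kcna2, Kcnh1, Kcnj3, Kcnk1 and Kcnk10 did have H3K4me3 over an annotated start. Starts were known for 69 of the 93 genes, and the background was likewise defined by gene ends alone. Unmarked channel genes with a region numbered 10 of 25 under 20 kb (background 13.8%), 7 of 15 from 20 to 100 kb (31.6%) and 4 of 5 over 100 kb (61.2%).

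The strength of a gene's MafA binding was described by its strongest region and that region's percentile among all 25894 MafA regions of the genome by mean fold enrichment. The median percentile over the 52 genes was 70.9, against 56.7 over all 9639 protein-coding genes with a region. Ranked by fragments at the summit the order turned, with medians of 69.2 for the channel genes and 76.8 for all protein-coding genes, so the family's place against the background depended on the measure. By fold enrichment, 9 channel genes stood at or above the 90th percentile, where 6.79% of all protein-coding genes had such a region. Genes with more regions have more chances of a high value, and the channel genes had a median of 2 regions against 1. At least 5 regions were present at 9 channel genes, against a background of 4.20% of all protein-coding genes. Within length classes the medians were 32.7 and 40.2 (channel and all genes) under 20 kb, 70.1 and 55.7 from 20 to 100 kb, and 83.5 and 81.1 over 100 kb.

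**Figure D2:**
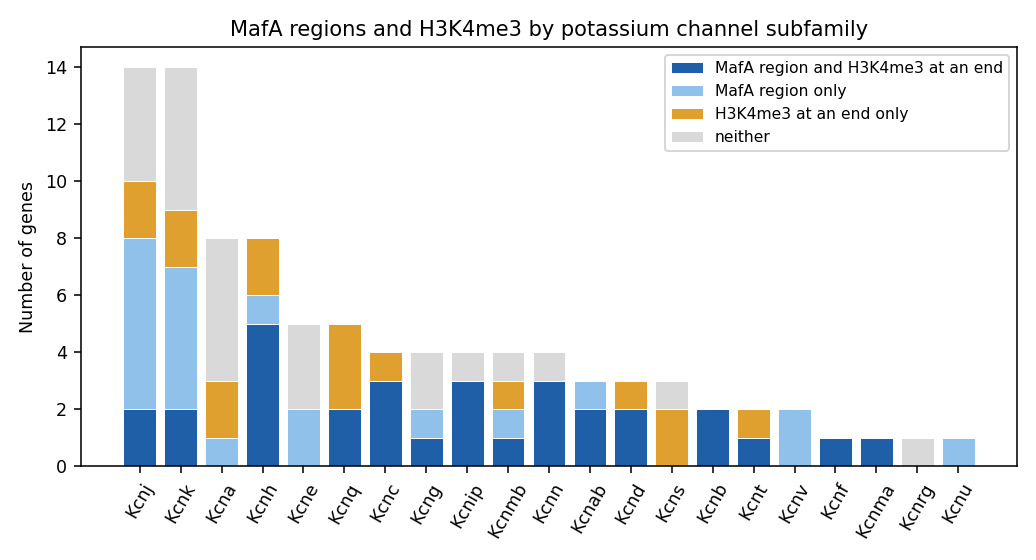
Number of genes (vertical axis) in each of the 21 potassium channel subfamilies, split by whether a MafA region and an H3K4me3 mark at a gene end were present. A MafA region was present at 3 of 3 Kcnab genes, 1 of 8 Kcna genes and 0 of 3 Kcns genes. Over all protein-coding genes the share was 44.0%, and the subfamilies differ in gene length.

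Voltage-gated pore subunits open on depolarisation, and 16 of 30 had a MafA region and 23 an H3K4me3 mark. Over all protein-coding genes the shares were 44.0% and 55.8%. The median length of the 30 was 39352 bp, and 53.1% of all genes from 20 to 100 kb had a region. Kcnb2 (chromosome 1, 15286925 to 15723751), which encodes a delayed rectifier subunit of the Kv2 type, had both. It held 6 regions inside the gene, with 9.11 and 10.2 at the strongest. One weaker Kcnb2 region, with 3.45 and 4.66, reached an end of the gene and was over H3K4me3.

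The Kcnd genes encode A-type Kv4 subunits, which inactivate rapidly. At Kcnd3 the strongest of 4 regions, with 13.8 and 14.6, lay 363 bp outside the gene and within 10 kb of Ddx20. Inside Kcnd3 the highest mean was 8.73, from 5.99 in replicate 1 and 11.5 in replicate 2, and that region was also the strongest left with 50% reciprocal overlap. Kcnd1 had a single region inside its neighbour Otud5, with 4.32 and 5.76. Kcnd2, although 514460 bp long and marked by H3K4me3, had 1 peak in MafA replicate 2 and 0 in replicate 1. Members of this small subfamily therefore ranged from strong to unmatched binding.

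Kcnc genes encode fast Kv3 subunits. Kcnc2 had 1 region with 11.8 and 9.80. Kcnc1 had 8.93 and 8.26 in a region 9048 bp outside it and inside Sergef. Its highest mean inside the gene was 6.74, from 4.88 in replicate 1 and 8.59 in replicate 2. With 50 kb either side the highest mean was 22.0. Kcnc4, with H3K4me3 fold enrichment of 14.0 and 6.87, had no MafA peak in either library. The value for Kcnc1 thus depended on the window, and the replicates also differed at its region inside the gene.

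The Kcnh subfamily (EAG, ERG and ELK channels) had the most MafA regions among voltage-gated pores, 26, at 6 of 8 genes. Its median gene length was 156106 bp, and 78.5% of all protein-coding genes over 100 kb had a region. Kcnh1 and Kcnh5 held 9 each. At Kcnh5 the strongest had 8.06 and 10.7, and at Kcnh1 it had 5.59 and 9.90, or a mean of 16.8 for a stronger region within 50 kb. Kcnh7 had 8.03 and 8.12 at the strongest of 4. Kcnh2, the ERG channel gene, had 5.90 and 4.84 at the stronger of 2 regions, without H3K4me3. Its weaker region, with 2.72 and 4.06, lay over H3K4me3. Fold enrichment of H3K4me3 at Kcnh2, 31.9 and 23.5, was among the highest of the family. Kcnh6 had 4.71 and 6.31 at a region inside Ace3, and Kcnh3 had 4.05 and 4.05 at one inside Mcrs1. Kcnh8 had no MafA peak, and Kcnh4 had 1 in replicate 2.

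Kcnq genes encode slowly opening Kv7 subunits. Kcnq1 (chromosome 7, 143106877 to 143427050) had 3 MafA regions, the strongest with 8.60 and 8.67 inside the gene from 143154018 to 143154669. The mean for Kcnq1 was 19.1 when 50 kb either side was allowed and 5.50 with 50% reciprocal overlap. Another Kcnq1 region, from 143295816 to 143296969, covered an end of the antisense transcript Kcnq1ot1 at 143296547, the imprinted RNA that lies within Kcnq1. MafA fold enrichment there was 4.43 and 4.53, and the H3K4me3 region over it had 22.0 and 20.6, against 6.37 and 7.16 at the end of Kcnq1 itself. Kcnq1 was therefore more strongly marked within the gene, at the antisense transcript, than at its own end. Kcnq5 had no MafA peak, and Kcnq3 had peaks in both replicates that did not overlap.

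Kcna genes encode Shaker-type subunits. Kcna2 alone of 8 had a region, with 4.78 and 5.40, and no MafA peak in either library was found at 6 others, Kcna1, Kcna3, Kcna4, Kcna5, Kcna6 and Kcna10. Kcna7 had 1 peak in replicate 1. H3K4me3 was at an end of Kcna4 and Kcna7. The Kcna genes are short, with a median length of 10959 bp, and across all protein-coding genes under 20 kb a region was found at 31.1%.

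Silent modifier subunits, which make no functional channel alone and join Kv2 pores, had a region at 5 of 10 genes. The share was 44.0% over all protein-coding genes and 31.1% over those under 20 kb, and these 10 had a median length of 17473 bp. Kcng3 (chromosome 17, 83574023 to 83631995) had the second strongest region of the family, with 19.7 in replicate 1 and 24.8 in replicate 2. The replicates held 70 and 179 fragments there, and the region, from 83640161 to 83641320, lay 8166 bp outside the gene, with its summit at -8746 bp from the annotated start (negative upstream). The strongest region inside Kcng3 had a mean of 5.18. Kcng4 replicates differed, with 4.85 and 10.1 at a region 4426 bp outside the gene. At Kcnv2 the values were 7.0 and 5.82 and at Kcnf1 4.62 and 3.70, with a mean of 9.10 for Kcnf1 when 50 kb was allowed. At Kcnv1 they were 3.84 and 2.70, in a region 3425 bp outside the gene. No MafA peak was found at Kcng1, Kcng2, Kcns1 or Kcns2, and Kcns3 had 1 in replicate 2.

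Inward rectifiers pass current more readily into the cell and hold the membrane near its resting potential. A region lay at 8 of 14 Kcnj genes and H3K4me3 at 4, against 44.0% and 55.8% of all protein-coding genes. The Kcnj median length was 30980.5 bp, and 53.1% of all genes from 20 to 100 kb had a region. The G protein-gated channel genes Kcnj3 and Kcnj6 led, with 11.3 and 12.0 at Kcnj3 and 9.46 and 11.1 at the strongest of 8 regions of Kcnj6. Their partner gene Kcnj5 had 9.98 in replicate 1 and 3.35 in replicate 2, a gap of nearly 3-fold between libraries. That region lay 1509 bp outside Kcnj5. Kcnj12 had 9.98 and 8.41 in a region 3709 bp outside the gene. Its other region, with 8.61 and 7.33, covered an end of Kcnj12 and lay over H3K4me3. For Kcnj1, the renal outer medullary channel gene, the values were 8.60 and 8.40 at a region 2158 bp outside the gene. For Kcnj9 they were 6.45 and 6.73 at a region inside Igsf8. Kcnj8, the pore of vascular ATP-sensitive channels, had no MafA peak and no H3K4me3 at an end. Neither did Kcnj10, Kcnj14 and Kcnj15.

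Tandem pore domain channels carry background leak current. Of 14 Kcnk genes 7 had a region and 4 had H3K4me3 at an end, against 44.0% and 55.8% of all protein-coding genes. The Kcnk median length was 37066 bp, and 53.1% of all genes from 20 to 100 kb had a region. Kcnk5 (chromosome 14, 20140057 to 20181782) stood highest, with 12.4 and 15.6 at a region inside the gene from 20165130 to 20165908 and no H3K4me3 at an end. Kcnk16, an islet leak channel gene on the same chromosome, had 4.68 and 4.83 with 13 and 31 fragments, also without the mark. Kcnk10 had 7.78 and 7.98, and Kcnk1 had 5.25 and 3.73 in a region 2709 bp outside the gene. At Kcnk4 and Kcnk7 the single region lay inside another gene, Catsperz and Ehbp1l1. Kcnk2, Kcnk3 and Kcnk12 had no MafA peak in either library, although Kcnk3 (10.4 and 8.86) and Kcnk12 (6.96 and 5.11) were marked by H3K4me3. Apart from Kcnk5 and Kcnk10 the Kcnk regions were in the weaker part of the list, and the median percentile of the 7 genes was 39.3.

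Calcium- and sodium-activated pores had a region at 6 of 8 genes. Their median length was 120824 bp, and 78.5% of all protein-coding genes over 100 kb had a region. Kcnma1, the pore of BK channels, which open on calcium and depolarisation, is 712823 bp long and held 12 regions. The strongest had 8.93 and 11.7 (chromosome 14, 23902321 to 23903455), and a neighbouring region, from 23903786 to 23904653, had 6.42 and 8.72. None of the 12 lay over H3K4me3, although the mark at the end of Kcnma1, at 33.3 and 26.1, had the highest mean of the 48 marked genes. The SK channel gene Kcnn3 had 8.72 and 7.99, and Kcnn1 had 5.23 and 6.88 at a region inside Arrdc2 and a mean of 4.64 inside the gene. Kcnn2 had the lowest value of the 52 genes, 2.81 and 2.60, in a region 47 bp outside it. The remaining SK-type gene, Kcnn4, had no MafA peak. Kcnu1, the sperm channel gene, was grouped here by its subfamily and not by its gating. It had 10.5 and 9.16 without H3K4me3 at an end, and Kcnt1 had 4.73 and 5.82. Kcnt2 had peaks in both replicates that did not overlap.

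Auxiliary subunits held the strongest region of the family and 59 distinct regions, at 10 of 17 genes. The share was 44.0% over all protein-coding genes and 53.1% over those from 20 to 100 kb, and these 17 had a median length of 24077 bp. Kcnip1 (chromosome 11, 33629339 to 33993348), which encodes a calcium-binding partner of Kv4 channels, had 19 regions, 18 of them inside the gene. The strongest, from 33745789 to 33748610, had 22.5 in replicate 1 and 30.8 in replicate 2 with 88 and 223 fragments, the highest mean of the family at 26.7 ± 5.85 (SD, n = 2). It lay 116450 bp from the nearer end of Kcnip1 and without H3K4me3. The nearest regions on either side had 6.26 and 10.4 (from 33744377) and 3.77 and 3.78 (from 33749664), and the next one along had 8.48 and 13.5 (from 33751941). One weaker Kcnip1 region also lay 294 bp from Kcnmb1 and was the only region shared by 2 members. Kcnip4, the longest member at 1135620 bp, had 16 regions, with 14.4 and 16.9 at the strongest. Kcnip3 had 7.22 and 7.50 at its start, and Kcnip2 had no MafA peak.

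The beta subunits of Kv1 channels are encoded by the Kcnab genes, and all 3 had a region. These genes have a median length of 86806 bp, and 53.1% of all protein-coding genes from 20 to 100 kb had a region. Kcnab2 (chromosome 4, 152390744 to 152477549) had 5, the strongest with 18.2 and 19.2 inside the gene from 152445789 to 152446762, 2392 bp downstream of an annotated start. The fragments there were 53 and 99. Kcnab3 had 13.6 and 10.4 at a region over H3K4me3, inside the gene and within 10 kb of Cntrob and Trappc1, with 194 and 346 fragments. At Kcnab1 the values were 7.62 and 7.22. Among Kcnmb genes, which encode BK beta subunits, Kcnmb2 had 8 regions with 12.0 and 13.6 at the strongest, and Kcnmb3 and Kcnmb4 had no region found in both replicates. Kcne genes encode small membrane subunits, and none had H3K4me3 at an end. They have a median length of 5745 bp, and 46.7% of all protein-coding genes under 20 kb were marked. Kcne2 had 4.40 and 2.32. Kcne1 had 5.63 and 3.63 in a region 9232 bp outside the gene and within 10 kb of Smim34.

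**Figure D3:**
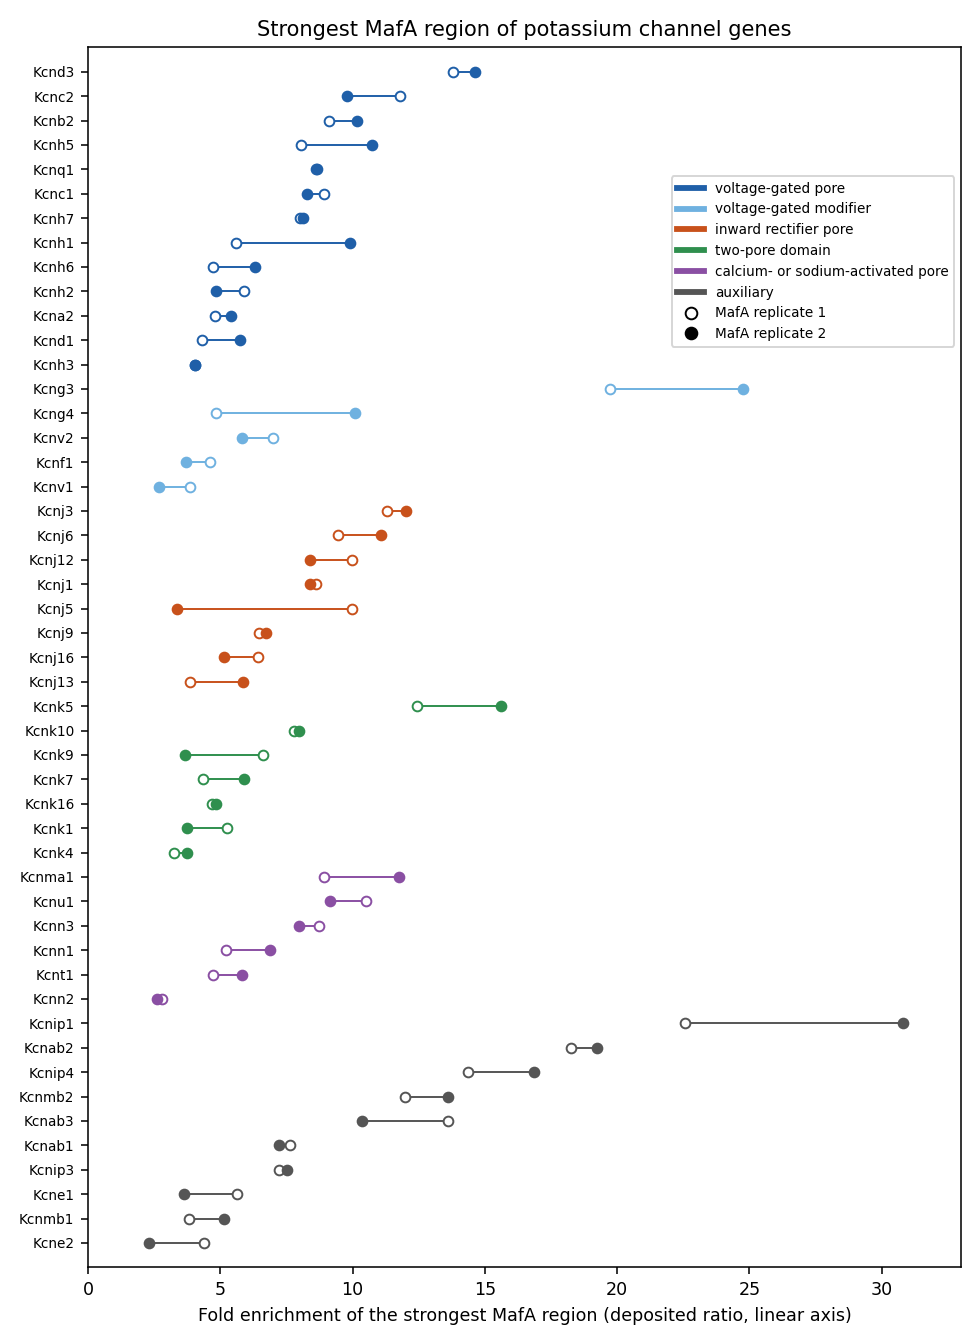
Fold enrichment (horizontal axis, linear) of the strongest MafA region of the potassium channel genes with one that are reported here, in replicate 1 (open) and replicate 2 (filled), coloured by class of subunit. Kcnip1 (22.5 and 30.8), Kcng3 (19.7 and 24.8) and Kcnab2 (18.2 and 19.2) stand apart from the rest, and Kcnj5 (9.98 and 3.35) shows the widest relative gap between replicates.

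In 139 of the 168 regions the 2 replicates' fold enrichment was within 1.5-fold (82.7%, against 83.0% of all MafA regions). The 5 genes with the most regions, Kcnip1, Kcnip4, Kcnma1, Kcnh1 and Kcnh5, together held 65 of the 168. A single region was found at 22 of the 52 genes. Inside a channel gene lay 135 regions (80.4%, against 85.0% of the regions at all protein-coding genes). At least 1 lay inside 40 of the 93 genes (43.0%, against 31.6% of all protein-coding genes). The other 12 genes had regions only in the flanks. For 8 genes (Kcnd1, Kcnh3, Kcnh6, Kcnj9, Kcnj13, Kcnk4, Kcnk7 and Kcnmb1) every region lay inside another protein-coding gene, so the assignment to the channel gene rests on distance alone. The table gives no exons, so exonic and intronic positions were not told apart.

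**Figure D4:**
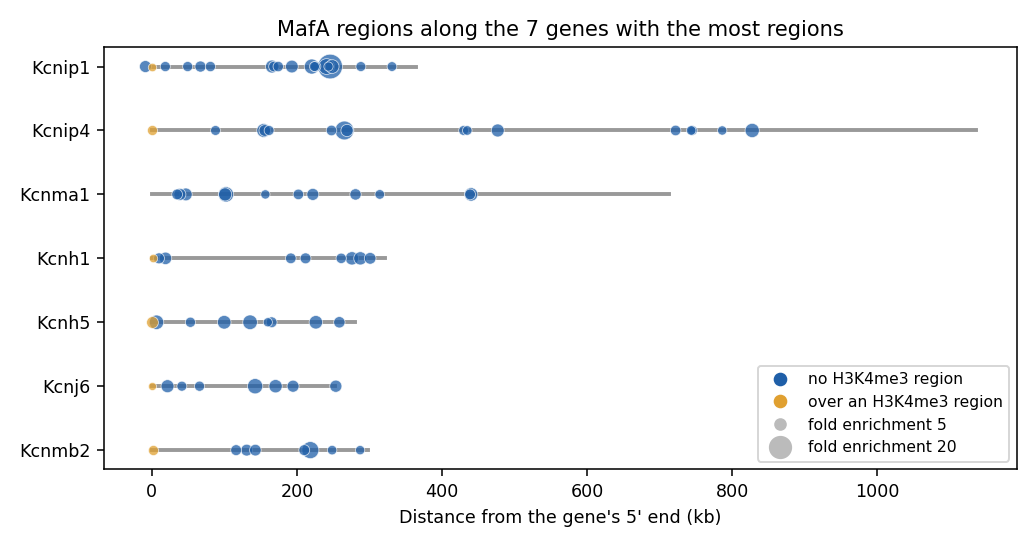
Positions of MafA regions along the 7 potassium channel genes with the most regions, as distance from the 5' end of the gene (horizontal axis, kb), with the area of each point proportional to mean fold enrichment and the gene drawn as a grey line. Regions over H3K4me3 (orange) sit at or near the 5' end, and the strongest Kcnip1 region (22.5 and 30.8) lies among several others well inside the gene.

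Most regions were far from annotated starts of the channel gene they were assigned to. For the 69 genes in the RefSeq promoter table, the median distance from MafA summit to the gene's nearest start was 53380 bp. Within 1 kb of such a start lay 9 of 140 regions. Starts of other genes were not used, and the Kcnj9 region, 19229 bp from a Kcnj9 start, reached an end of another gene. The same distances were not computed for all protein-coding genes, and long genes allow larger ones. H3K4me3 regions overlapped 28 of the 168 MafA regions (16.7%, 95% Wilson interval 11.8 to 23.0%), against 30.5% (29.8 to 31.1%) of the 17933 MafA regions at protein-coding genes. With the regions near other protein-coding genes left out the share was 10.6%, and with equal numbers of the strongest peaks it was 11.0%. The share over all protein-coding genes was not computed under either setting, so these values cannot be set against the 30.5%. Of the 28, 21 lay within 1 kb of an end of a protein-coding gene. At regions over H3K4me3, median fold enrichment was 4.19 and 4.75 in the replicates, against 5.47 and 5.88 elsewhere. Fragments at the summit ran the other way, at 48 and 99 against 24 and 51, and the modelled background was 9.83 and 15.2 against 3.38 and 5.0. Fold enrichment divides by that background, so the order of these classes depended on the measure.

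Promoter windows from 250 bp before to 50 bp after an annotated start were compared with the peaks directly. MafA peaks of both replicates overlapped 8 of 94 windows, 1 each at Kcnip1, Kcnab2, Kcnmb2, Kcnj6, Kcnh5, Kcnh1, Kcnip3 and Kcnf1. Over all protein-coding genes the share was 14.6% of windows. Of the 8 windows, 7 also overlapped H3K4me3 peaks of both replicates, and at Kcnf1 replicate 1 alone had one. Over all protein-coding genes this held for 3011 of 3110 windows with MafA. H3K4me3 itself lay over 41.5% of the channel gene windows and 54.8% of all windows. The 250 bases upstream of the start are shown for 4 of them, chosen as the strongest promoter binding (Kcnip3 and Kcnh5), the strongest H3K4me3 (Kcnab2) and the highest number of MAF core motifs (Kcnip1), from RefSeq (GRCm38.p6), 5' to 3' along the gene, with the MAF core motif (TGCTGA or its reverse complement TCAGCA) in capitals:
Kcnip3 (chr2:127522095-127522344, minus strand): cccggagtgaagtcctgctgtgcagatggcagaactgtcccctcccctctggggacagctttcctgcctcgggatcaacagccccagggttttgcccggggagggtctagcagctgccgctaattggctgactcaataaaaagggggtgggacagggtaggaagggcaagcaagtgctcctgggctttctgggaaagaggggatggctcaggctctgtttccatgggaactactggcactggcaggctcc
Kcnh5 (chr12:75177333-75177582, minus strand): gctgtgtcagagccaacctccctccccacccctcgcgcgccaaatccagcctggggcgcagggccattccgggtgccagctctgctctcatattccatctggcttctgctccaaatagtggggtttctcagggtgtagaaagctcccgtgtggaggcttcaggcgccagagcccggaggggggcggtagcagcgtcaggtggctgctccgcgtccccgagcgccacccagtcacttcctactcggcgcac
Kcnab2 (chr4:152477550-152477799, minus strand): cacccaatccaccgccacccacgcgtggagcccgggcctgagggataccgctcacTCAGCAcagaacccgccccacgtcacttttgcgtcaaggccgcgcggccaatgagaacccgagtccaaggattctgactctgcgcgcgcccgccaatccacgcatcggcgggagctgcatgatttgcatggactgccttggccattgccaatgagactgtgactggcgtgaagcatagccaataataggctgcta
Kcnip1 (chr11:33993194-33993443, minus strand): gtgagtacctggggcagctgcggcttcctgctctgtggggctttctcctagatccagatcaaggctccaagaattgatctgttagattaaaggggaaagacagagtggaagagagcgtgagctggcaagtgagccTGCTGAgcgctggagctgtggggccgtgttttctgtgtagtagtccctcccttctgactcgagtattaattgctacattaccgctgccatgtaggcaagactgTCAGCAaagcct

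At Kcnip3 the MafA summits lay at -220 and -271 bp from the start, with fold enrichment of 7.22 and 7.50, and this was the gene's strongest region. At Kcnh5 they lay at 353 and 346 bp, with 6.04 and 6.30 and with 111 and 252 fragments. The Kcnab2 summits, at -257 and -254 bp, had 3.82 and 3.98, and H3K4me3 peaks there had 29.9 and 27.1. That region also lay inside Nphp4, whose end shares the H3K4me3 region. At Kcnip1 they were at -265 and -432 bp, with 2.90 and 3.35, far below the 22.5 and 30.8 of the region inside the gene. Core motifs in the printed stretches numbered 0 at Kcnip3 and Kcnh5, 1 at Kcnab2 and 2 at Kcnip1. The Kcnab2 motif, at 152477739 to 152477744, lay within the MafA peaks of both replicates. Both Kcnip1 motifs, at 33993200 to 33993205 and 33993303 to 33993308, lay outside the peaks, which began at 33993348 and 33993354. Of the summits at these 4 promoters, the printed stretch held that of Kcnip3 in replicate 1 and none of the others, and at Kcnh5 the peaks covered 22 and 63 of its 250 bases. On both strands of these windows, TGCTGA was present in 16 of 94 channel gene windows (17.0%) and 19.5% of all 32851 windows in the table. That set is wider than the 21263 windows of protein-coding genes used for the peak overlaps above. The longer TGCTGAC, each match of which is also a TGCTGA match, was in 3 of 94 (3.19%) and 4.67%, and the palindromic T-MARE in 0 of 94 and 2 of 32851. A match describes the letters alone.

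H3K4me3 and MafA strength were then set side by side at the 48 marked genes. The highest H3K4me3 fold enrichment was at Kcnma1 (33.3 and 26.1), Kcnab2 (29.9 and 27.1) and Kcnh2 (31.9 and 23.5), and their strongest MafA regions had means of 10.3, 18.7 and 5.37. Kcnmb4 had 33.5 and 16.5 for H3K4me3 and a single MafA peak, in replicate 2. Marked genes without a MafA peak in either library included Kcnc4, Kcnk3, Kcnk12, Kcns2 and Kcna4, the 5 of that kind with the strongest mark. Their H3K4me3 was moderate to low, from 14.0 and 6.87 at Kcnc4 to 5.06 and 4.24 at Kcna4. In all, 27 of the 93 genes had no MafA peak in either library, against 39.0% of all protein-coding genes. Neither a MafA peak nor H3K4me3 at an end was present at Kcna3, Kcna6, Kcng1, Kcnj8, Kcnk2 and Kcnn4 among the channel genes described in beta cells or islets.

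**Figure D5:**
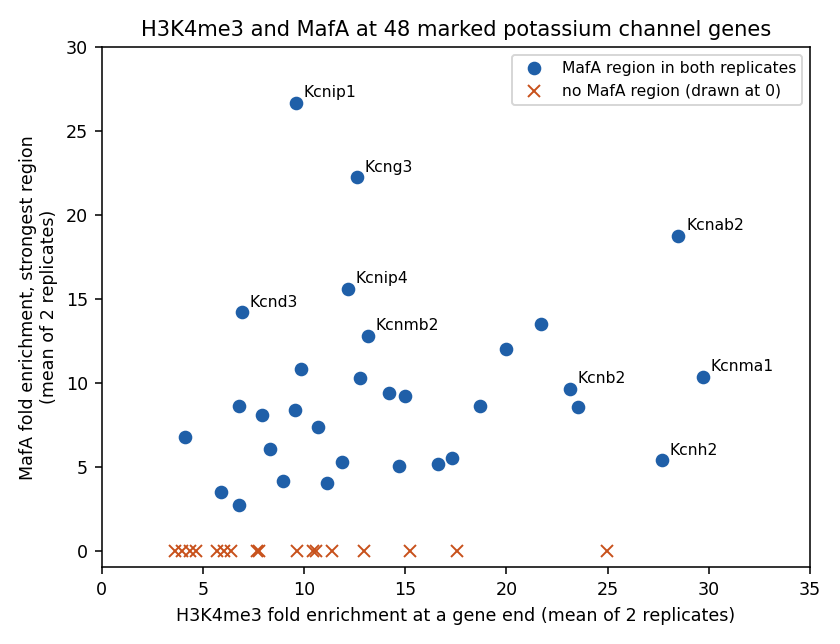
H3K4me3 fold enrichment at a gene end (horizontal axis) against that of the strongest MafA region (vertical axis) for the 48 marked potassium channel genes, as means of 2 replicates, with genes lacking a MafA region drawn at 0. Strong MafA regions occur at moderate H3K4me3 (Kcnip1, Kcng3) and at high H3K4me3 (Kcnab2).

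A list of 38 potassium channel genes described in beta cells or islets had 37 members in the table. A MafA region lay at 26 of these 37 and at 26 of the other 56 channel genes, against 44.0% of all protein-coding genes. The list was not matched for length. It holds long genes such as Kcnma1 (712823 bp) and Kcnd2 (514460 bp), and 78.5% of all genes over 100 kb had a region. H3K4me3 was at an end of 23 of the 37, against 55.8% of all protein-coding genes, and 18 of the 37 had both. The median percentile of the strongest region was 78.1 for the listed genes. The list was drawn up with results of these data known, so it is a description.

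Genes outside the family whose products join or tune these channels were read in the same way. Of 15, 9 had a MafA region and 8 had H3K4me3 at an end, against 44.0% and 55.8% of all protein-coding genes. The Kv4 partner genes Dpp6 and Dpp10, which are 910144 and 1513678 bp long, had 21 and 9 regions, and neither was marked at an end. The strongest had 49.9 and 65.0 at Dpp6 and 15.7 and 23.4 at Dpp10. Abcc8, the sulfonylurea receptor of beta cell ATP-sensitive channels, had 17 regions with 16.1 and 18.1 at the strongest, while Abcc9, its vascular counterpart, had a single peak in replicate 2. Among the pacemaker channel genes, Hcn4 had 8.45 and 12.4, and no MafA peak was found at Hcn2 or Hcn3. For the BK gamma subunit genes, Lrrc52 had 13.2 and 17.8, and Lrrc26, Lrrc38 and Lrrc55 had no MafA peak.

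Whether MafA peaks at channel genes were placed like H3K4me3 peaks was tested over the 4 libraries. Summits within 1 kb of an end of any protein-coding gene made up 13.1% and 13.5% of MafA peaks in replicates 1 and 2, and 65.7% and 64.9% of H3K4me3 peaks. The groups did not overlap, with means of 13.3 ± 0.319% and 65.3 ± 0.567% (SD, n = 2 each) and a difference of -52.0 percentage points. A two-sided exact permutation test returned p = 0.333. No smaller value is possible with 2 libraries per target, so 0.05 was out of reach. The difference exceeded the spread between replicates of either target. Shares for peaks at all protein-coding genes were not computed, so the difference cannot be called particular to the channel genes.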

How the data were processed

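MACS2 narrow peak lists of 2 H3K4me3 and 2 MafA libraries were used, 1 list per library, with MACS2 and the builds GRCm38 and mm10 named in the submitters' processing notes. Versions, aligner, duplicate handling and control library were not given in the sources used here. Deposited values are, at each summit, a linear ratio (fold enrichment), a −log10 p-value and a −log10 q-value; the last was at least 2.00 in each list. The deposited score was not used. The lists held 16020 and 16904 H3K4me3 and 33013 and 42747 MafA peaks.

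Overlapping peaks of both replicates were merged into 25894 MafA and 15573 H3K4me3 regions, valued in each replicate by its peak of highest fold enrichment. Peaks were assigned to genes of the RefSeq table in Python 3.11.15 (pandas 2.3.3, numpy 2.4.6, scipy 1.17.1), and figures were drawn with matplotlib 3.10.9. Fragments at summits were solved from the deposited ratio and p-value, as whole multiples of 1 scaling factor per library (0.415, 0.997, 1.00 and 0.746, in the order above), within 0.02 fragments (or a small relative tolerance at deep summits) for at least 99.7% of peaks. Read totals are unknown. The promoter table held 69 of the 93 genes. Peak assignment and fragment recovery were tested on simulated data.

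Shares of the family are descriptions beside the share of all genes, and the single test was an exact permutation test over libraries. The replicate numbers are not said to pair libraries. The planned count of selectivity filters needs protein sequences and was not made. Genes named were the 20 with the strongest MafA region, the 5 with the most regions, the beta cell list, the 5 most strongly marked genes without a MafA peak, genes with MafA at a promoter window, partner genes, and, chosen after their values were seen, further members named to complete a subfamily. The members and lists were chosen with earlier results of these data known. Some genes are counted in the totals but not reported here.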

Additional observations from a re-analysis of the deposited data

How the results depend on the processing

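The settings tried were 50% reciprocal overlap, a stricter −log10 q (5 or more), the 16020 strongest peaks of each library (equal numbers), other windows, strength by fragments, and leaving out each library. Leaving out regions near protein-coding genes outside the family was added after seeing the data. The number of channel genes with a MafA region stayed within 1.5 times 52 except with equal numbers, where fewer peaks entered (32 genes and 73 regions). Leaving out a MafA replicate gave 59 to 63 genes and 222 to 259 regions, from all peaks of the library kept, and the 259, without replicate 1, were over 1.5 times the 168. Genes with H3K4me3 at an end numbered 33 (over an annotated start, of 69 genes in the table) to 65 (in the gene or within 10 kb), and 48 to 50 without an H3K4me3 replicate. The share of MafA regions over H3K4me3 left its interval with equal numbers (11.0%) and without regions near other genes (10.6%), and was 14.4 to 20.5% over the settings that left out a library. The median percentile of 70.9 moved by more than its replicate SD of 0.297, to 68.6 (−log10 q of at least 5), 60.2 (equal numbers), 67.2 (50% overlap), 73.8 (gene body only), 73.2 (50 kb), 69.2 (fragments, where all protein-coding genes had 76.8, so that the family fell below them), 76.5 (without regions near other genes) and 70.4 to 72.2 without a MafA replicate. The cause was not tested. The difference in placement at gene ends was -51.2 (−log10 q of at least 5), -36.9 (500 bp) and -34.4 points (ends of channel genes alone), and -52.4 to -51.6 without a library. With the replicate number as a block it was -52.0, with an exact permutation p of 0.5, the smallest possible; no p could pass 0.05 under any setting. Of 36 named genes with a region, 163 values were obtained under 5 alternatives, of which 16 shifted beyond the replicate SD, and a gene lost its region in 17 cases, 10 of them with equal numbers. MafA summits with a median of 22 and 45 fragments limit what unmatched peaks can show.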
